A study of Mus musculus with 18 samples.

Results

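The RNA of 10 imprinted genes was followed in single mouse embryos at the 2-cell stage, sired by wild-type males or by males without the 110 kDa form of poly(ADP-ribose) glycohydrolase (PARG). The genes were taken by name, as well known imprinted genes, and 1 RefSeq transcript was taken for each, giving 10 rows of the 26823 rows of the count files. They are H19, Igf2, Igf2r, Peg3, Mest, Grb10, Cdkn1c, Plagl1, Dlk1 and Snrpn.

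Genomic imprinting is the expression of a gene from only one parental allele, set by DNA methylation that the egg or the sperm leaves at control regions and that survives the erasure of methylation after fertilization. Paternally expressed genes often promote growth of the conceptus and maternally expressed ones often restrain it. At the 2-cell stage the embryonic genome has just been switched on, so the RNA is a mixture of transcripts stored in the egg and transcripts newly made by the embryo, and the counts do not tell one parental allele from the other.

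The study asked whether altered histone retention in sperm goes along with altered gene expression in the offspring, and the comparison here is the level of the imprinted genes in the 9 embryos of 3 wild-type (WT) fathers against the 9 embryos of 3 Parg(110)-/- fathers, with 3 embryos of each father. Males of both kinds were mated naturally with wild-type 129SVE females, so the genotype on the labels is the father's, and embryos of Parg(110)-/- fathers carry 1 disrupted and 1 intact Parg allele. All embryos shared the 129SVE background; shorter PARG forms and RNA stored in the egg are not removed by the disruption. RNA of each embryo was amplified before sequencing, and fathers are numbered 1, 2 and 3 (WT) and 6, 7 and 8 (Parg(110)-/-), so that embryo 6-1 is the first of father 6.

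Library totals ran from 2852858 to 13355161 counts, and 1 count was worth between 0.0749 and 0.3505 CPM (counts scaled to a library total of 1000000). Rows with a count numbered 11823 to 16436, with a median of 13997 in WT and 12678 in Parg(110) embryos. Median library totals were 7594021 counts in WT and 7191377 in Parg(110) embryos. Parg itself (NM_011960) measured 74.7 ± 32.1 CPM (SD, n = 9) in WT and 46.4 ± 18.3 CPM (SD, n = 9) in Parg(110) embryos, with ranges that overlapped and an edgeR log2 difference of -0.67 (SE 0.34, adjusted p = 0.872). The exact permutation p was 0.0312 over embryos and 0.1, the smallest possible, over fathers, with all 3 Parg(110)-/- father means (36.7 to 58.1 CPM) below all 3 WT father means (66.3 to 88.7 CPM). Its transcripts of the intact and the disrupted allele were not counted apart, so the row does not check the label. The 2-cell markers Tdpoz4 and Obox3 and the oocyte markers Zp3, Gdf9, Bmp15 and Nlrp5 had counts in all 18 embryos, while the 2-cell markers Zscan4c, Zscan4d and Zfp352 had counts in 14, 16 and 16 embryos, with medians of 1.47, 2.11 and 2.49 CPM. Of 5 cumulus cell markers 4 were at 0 in every embryo, as were 3 of 4 sperm RNAs. The summed stroma markers Col1a1, Col1a2 and Col3a1 had a median of 0 in both groups and reached 5.24 CPM in WT embryos, all of it Col1a1 (70 counts) in embryo 2-1, and 2.77 CPM in Parg(110) embryos. Summed oviduct markers (Ovgp1, Foxj1 and Pax8) reached at most 2.77 CPM in WT embryos. They reached 427.65 CPM in embryo 6-2, 113.99 CPM in embryo 6-3, 31.66 CPM in embryo 7-3 and 19.75 CPM in embryo 8-3. Foxj1 had counts only in embryo 7-3 (139 counts), and they made up the whole sum there. Pax8 was at most 0.792 CPM, in embryo 7-1. The sums of embryos 6-2, 6-3 and 8-3 were thus Ovgp1 alone.

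Of the 6 paternally expressed genes, 5 had counts in at least 16 of 18 embryos and Dlk1 in 3. Igf2 (NM_010514; mm9 chr7:149836673-149852721, minus strand), a fetal growth factor, measured 10.4 ± 12.1 CPM (SD, n = 9) in WT and 13.8 ± 14.4 CPM (SD, n = 9) in Parg(110) embryos. WT values ran from 0 to 38.6 CPM with a median of 7.31 CPM, and Parg(110) values from 0.174 to 42.0 CPM with a median of 9.57 CPM. The groups overlapped over nearly their whole range, and the embryos of father 2 and of father 7 held the highest value of each group. Igf2as, a gene on the opposite strand, overlaps Igf2.

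Peg3 (NM_008817; mm9 chr7:6656603-6683132, minus strand), a zinc finger protein with roles in growth and maternal behaviour, had counts in all 18 embryos. WT embryos ran from 8.41 to 75.2 CPM with a median of 22.6 CPM, and Parg(110) embryos from 1.28 to 67.7 CPM with a median of 15.9 CPM. All 3 embryos of father 1 lay above all 3 of father 2 within the WT group. The means were 33.4 ± 26.6 CPM (SD, n = 9) and 25.4 ± 24.3 CPM (SD, n = 9).

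Mest (NM_008590; mm9 chr6:30673547-30698457, plus strand), a hydrolase-like protein of mesoderm, measured 12.1 ± 10.6 CPM (SD, n = 9) in WT and 11.4 ± 12.7 CPM (SD, n = 9) in Parg(110) embryos. The lowest, median and highest WT values were 0, 8.82 and 32.8 CPM, and those of the Parg(110) group 1.59, 4.96 and 40.7 CPM. The ranges overlapped. Copg2, on the opposite strand, overlaps Mest in the annotation.

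Plagl1 (NM_009538; mm9 chr10:12810497-12851500, plus strand), a zinc finger transcription factor that restrains cell growth, was near 0 in most embryos and high in a few. It ran from 0 to 120.4 CPM around a median of 2.11 CPM in WT embryos, and from 0 to 119.4 CPM around a median of 9.34 CPM in Parg(110) embryos. Embryo 2-1 (1608 counts) and embryo 6-3 (1301 counts), 1 of each group, stood far above the others. WT embryo 2-3, also of father 2, followed at 46.97 CPM. Group means of 20.2 ± 40.4 CPM and 18.3 ± 38.3 CPM (SD, n = 9 each) therefore rest largely on embryos 2-1 and 2-3 in WT and embryo 6-3 in Parg(110).

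Snrpn (NM_013670; mm9 chr7:67127388-67285105, minus strand) encodes a splicing protein of brain and is transcribed from one promoter with Snurf, whose row held identical counts, so the 2 genes cannot be told apart. WT embryos ran from 3.03 to 128.8 CPM with a median of 16.8 CPM, and Parg(110) embryos from 0 to 141.5 CPM with a median of 23.9 CPM. The means, 28.5 ± 38.8 CPM and 38.5 ± 45.8 CPM (SD, n = 9 each), overlapped widely. Embryos 3-1 and 6-1 were the highest of their groups and embryo 7-3 had no count.

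Dlk1 (NM_010052; mm9 chr12:110691033-110701546, plus strand), a transmembrane growth regulator, was close to absent, with 10 counts in embryo 2-1, 4 in embryo 2-2, 3 in embryo 3-2 and none in the other 15 embryos.

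The maternally expressed genes included the most abundant of the set. Igf2r (NM_010515; mm9 chr17:12875272-12962530, minus strand), the receptor that takes IGF2 to the lysosome, measured 273 ± 119.9 CPM (SD, n = 9) in WT and 275 ± 167 CPM (SD, n = 9) in Parg(110) embryos. WT values ran from 156 to 430.2 CPM with a median of 204 CPM, and Parg(110) values from 70.1 to 520.2 CPM with a median of 233 CPM. The Parg(110) range enclosed the WT range. Airn, a paternally expressed RNA, overlaps Igf2r on the opposite strand and had counts in 3 of 18 embryos.

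Grb10 (NM_010345; mm9 chr11:11830511-11938686, minus strand), an adaptor protein that limits insulin and IGF signalling, measured 6.89 ± 4.42 CPM (SD, n = 9) in WT and 9.22 ± 6.02 CPM (SD, n = 9) in Parg(110) embryos. WT embryos ran from 1.35 to 13.9 CPM with a median of 7.64 CPM, and Parg(110) embryos from 0.94 to 16.8 CPM with a median of 10.9 CPM. Within the Parg(110) group, the 3 embryos of father 6 (0.94 to 4.13 CPM) lay below all 6 embryos of fathers 7 and 8 (7.93 to 16.8 CPM).

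Cdkn1c (NM_009876; mm9 chr7:150644255-150646955, minus strand), the cyclin-dependent kinase inhibitor p57, had the largest fitted difference of the set. WT embryos ran from 0 to 64.2 CPM with a median of 10.2 CPM, and Parg(110) embryos from 0 to 33.4 CPM with a median of 1.74 CPM. Its means were 18.9 ± 24.3 CPM and 6.77 ± 10.8 CPM (SD, n = 9 each). The groups overlapped, 1 WT and 2 Parg(110) embryos had no count, and the WT embryos 1-1 and 3-1 and the Parg(110) embryo 6-1 were the high values.

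H19 (NR_001592; mm9 chr7:149761434-149764048, minus strand), a non-coding RNA made from the maternal allele next to Igf2, had 118 counts in embryo 2-1, 27 in embryo 3-2 and none in the other 16 embryos. Both embryos are WT, and both also held Dlk1 counts. Embryo 2-1 was the deepest library of all and also held the 70 counts of the stroma marker Col1a1; the part of either in its counts was not tested.

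**Figure D1:**
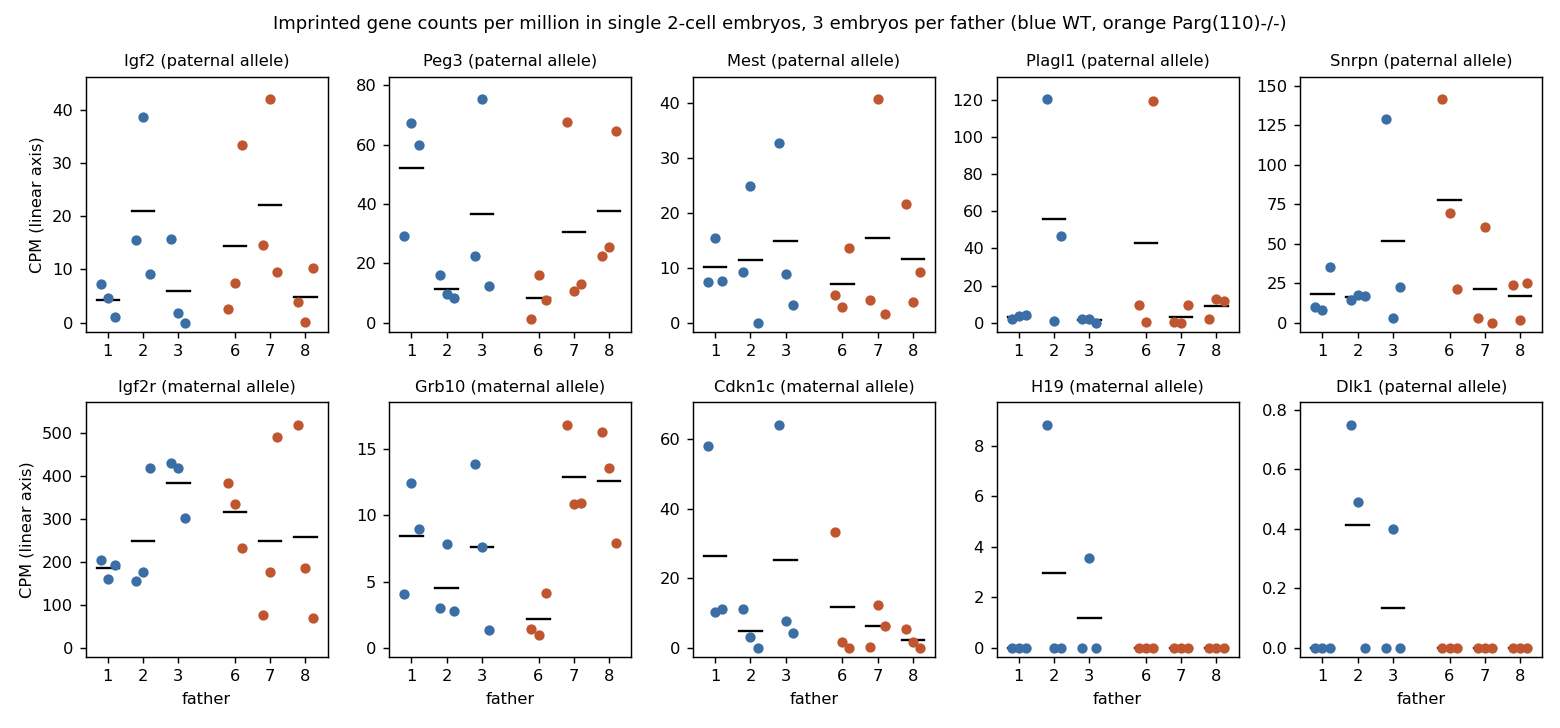
CPM (linear vertical axis, a scale of its own per gene) of the 10 imprinted genes in single 2-cell embryos, with fathers 1 to 3 (WT, blue) and 6 to 8 (Parg(110)-/-, orange) on the horizontal axis, each point 1 embryo and each bar the mean of a father's 3 embryos. Single embryos set the highest values, such as Plagl1 at 120.4 CPM in embryo 2-1 and 119.4 CPM in embryo 6-3, and H19 and Dlk1 are at 0 in all Parg(110) embryos.

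The Snrpn row and the Snurf row shared all their counts. For Snrpn and for Mest, a promoter entry with the most CpG dinucleotides of the gene is shown. The Snrpn entry shown is also listed for Snurf. Mest is the member whose entry holds the most copies of the motif searched. Each entry covers 250 bases before and 50 after a transcription start of the GRCm38.p6 build, a later build than the mm9 of the count files. Capitals mark TGCCGC or its reverse complement GCGGCA, the core of the motif bound by ZFP57, a zinc finger protein that protects imprints in the early embryo.
Snrpn and Snurf, chr7:60005150-60005449, minus strand: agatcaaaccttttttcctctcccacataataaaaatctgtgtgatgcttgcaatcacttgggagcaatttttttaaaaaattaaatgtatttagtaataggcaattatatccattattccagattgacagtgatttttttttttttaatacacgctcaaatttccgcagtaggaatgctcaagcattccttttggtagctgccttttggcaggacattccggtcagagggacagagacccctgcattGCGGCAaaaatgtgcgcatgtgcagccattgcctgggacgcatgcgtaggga
Mest, chr6:30737800-30738099, plus strand: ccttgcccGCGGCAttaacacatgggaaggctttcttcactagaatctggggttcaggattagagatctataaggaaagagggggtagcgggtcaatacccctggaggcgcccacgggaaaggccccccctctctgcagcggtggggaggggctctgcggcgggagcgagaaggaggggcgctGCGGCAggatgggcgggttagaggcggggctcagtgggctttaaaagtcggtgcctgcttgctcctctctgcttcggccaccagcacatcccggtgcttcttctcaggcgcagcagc
The Snrpn entry shown held 7 CpG dinucleotides and the Mest entry 17. The other Snrpn entries, with 2, 3 and 4 CpG dinucleotides, held no motif, nor did a Mest entry with 8. Of the 10 genes 8 had at least 1 entry, and 6 of their 17 entries held the motif on either strand (35.3%), beside 11.6% of all 32851 entries. Of the 6, 2 are Mest entries that start 3 bases apart and share the same copies. The motif itself holds a CpG. Entries of the 8 genes held 2 to 45 CpG dinucleotides, beside a median of 7.0 over all entries, and the shares were not matched for CpG content. A match describes these letters only, and binding was not measured.

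Levels between genes were compared per kilobase of the longest annotated transcript. Igf2r was highest, with a median of 24.6 CPM per kb over the 18 embryos, and exceeded Snrpn, the next (9.4 CPM per kb), in 14 of 18 embryos, with interquartile ranges that did not overlap. Below it came Mest, Cdkn1c, Peg3, Igf2 and Grb10, with medians from 3.2 down to 1.56 CPM per kb. Each of these overlapped its neighbours in interquartile range, and Mest exceeded Cdkn1c, and Cdkn1c exceeded Peg3, in only 9 of 18 embryos. Plagl1 had a median of 0.532 CPM per kb. H19 and Dlk1 had medians of 0.

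**Figure D2:**
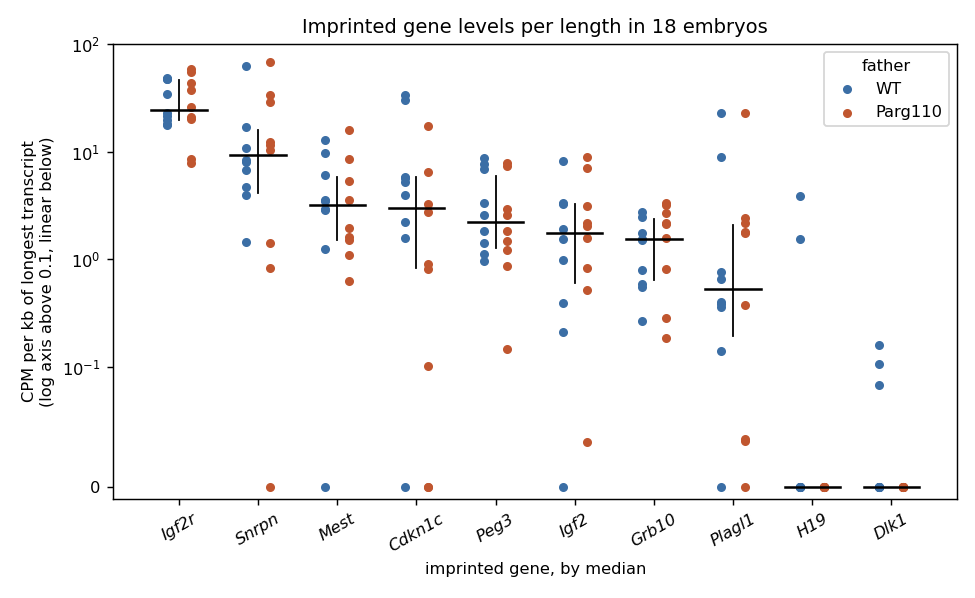
CPM per kilobase of the longest transcript (vertical axis, logarithmic above 0.1 and linear below) of the 10 genes in order of their median over 18 embryos, with points for embryos of WT (blue) and Parg(110)-/- (orange, marked Parg110) fathers, horizontal bars for medians and vertical bars for interquartile ranges. Igf2r, at a median of 24.6, stands above the others, and the interquartile ranges of Snrpn to Plagl1 overlap from each gene to the next.

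None of the imprinted genes was called different between embryos of Parg(110)-/- and WT fathers. The filter of at least 10 counts in at least 3 embryos left 15333 rows, among them 8 of the 10 genes; H19 and Dlk1 did not pass. By the quasi-likelihood test of edgeR with Benjamini-Hochberg adjustment, 0 of the 8 were called at an adjusted p under 0.1, as were 0 of the 15333 rows (0%). At an unadjusted p under 0.05 the test held 0 of the 8 and 889 of all rows (5.80%), and DESeq2 called 0 of the 8 and 38 of all rows (0.248%).

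The log2 difference of Cdkn1c was -1.45 (SE 1.08, 95% interval -3.74 to 0.83, adjusted p = 0.943). For Peg3 it was -0.39 (SE 0.61, interval -1.68 to 0.91), for Plagl1 -0.12 (SE 1.20, interval -2.66 to 2.43) and for Mest -0.09 (SE 0.78, interval -1.75 to 1.57). Igf2r stood at 0.01 (SE 0.35, interval -0.73 to 0.74), Igf2 at 0.40 (SE 0.90, interval -1.51 to 2.31), Grb10 at 0.41 (SE 0.71, interval -1.09 to 1.91) and Snrpn at 0.47 (SE 0.82, interval -1.27 to 2.22). Every interval holds 0, and all but that of Igf2r also hold a 2-fold difference in at least one direction.

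Fitted directions were mixed in both parental classes. Of the 5 paternally expressed genes tested 2 had a fitted difference above 0 (median -0.09), and of the 3 maternally expressed genes 2 (median 0.01), beside 49.0% of all rows tested and their median of -0.02. The spread between WT embryos, as the ratio of SD to mean CPM, had a median of 1.01 over the 8 genes, from 0.44 for Igf2r to 2.00 for Plagl1, beside 0.95 over all rows tested.

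Exact two-sided permutation of the 18 embryos gave p-values for the mean CPM from 0.206 (Dlk1) and 0.221 (Cdkn1c) to 0.978 (Igf2r) over the 10 genes, before adjustment. Exact permutation of the 6 father means, whose smallest possible p is 0.1, gave at least 0.3 for each gene, the value of Cdkn1c. Without father 6 the higher mean of Grb10 in Parg(110) embryos reached an exact permutation p of 0.0186 unadjusted. Without father 1 the lower mean of Dlk1 reached 0.044. With all fathers these were 0.357 and 0.206. Of 280 recomputed permutation tests of level over the 10 genes, these 2 alone had p under 0.05.

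H19 and Dlk1 were compared by detection. The median number of rows with a count was lower in Parg(110) embryos (12678) than in WT embryos (13997). The part of this difference in the zeros was not tested. H19 had counts in 2 of 9 WT and 0 of 9 Parg(110) embryos (Fisher's exact test, two-sided, p = 0.471), and Dlk1 in 3 of 9 and 0 of 9 (Fisher's exact test, p = 0.206). With the counts of each group pooled and a floor of 3 counts over the Parg(110) group, H19 was at least 45.8-fold lower in that group and Dlk1 at least 5.37-fold lower. Without embryo 2-1 these bounds fell to 10.5-fold and 2.71-fold, so they describe 2 or 3 embryos and not the condition. For the other 8 genes the number of embryos with a count differed by at most 1 between groups (Fisher's exact test, p = 1.0 for each).

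**Figure D3:**
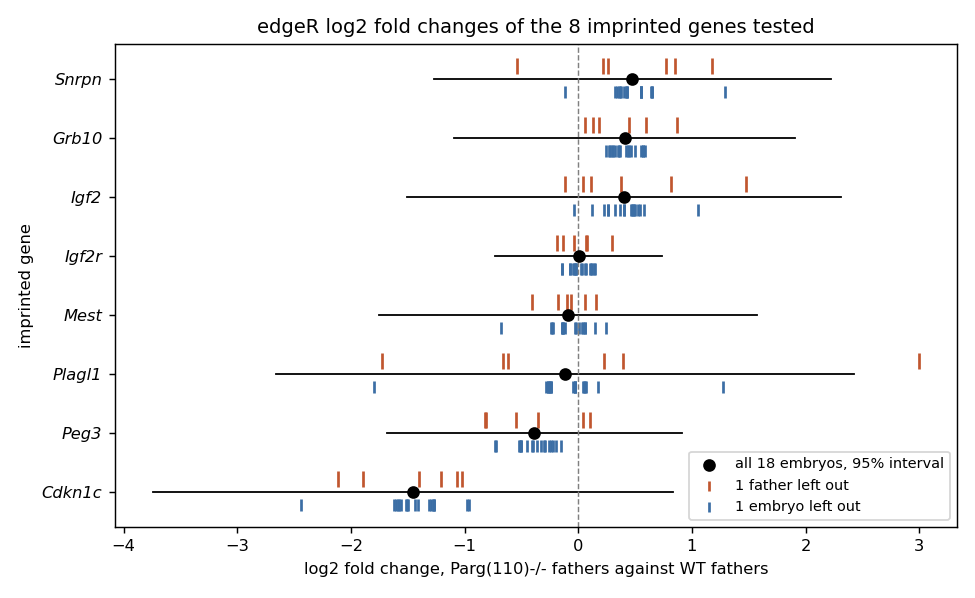
edgeR log2 fold changes (horizontal axis, embryos of Parg(110)-/- against WT fathers) of the 8 imprinted genes tested, with black points and 95% intervals from all 18 embryos, and ticks for fits without 1 father (orange) or 1 embryo (blue). Every interval crosses 0, and the fits of Plagl1 spread from -1.80 to 3.00.

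The direction of several genes turned with single fathers or embryos. Plagl1 moved to 3.00 on the log2 scale without father 2 and to 1.27 without embryo 2-1, and fell to -1.80 without embryo 6-3. Snrpn, higher in Parg(110) embryos, turned to -0.54 without father 6 and -0.12 without embryo 6-1. Igf2 reached -0.12 and Peg3 0.10 at their far ends. Cdkn1c and Grb10 kept their sign in every such fit, from -2.44 to -0.96 and from 0.06 to 0.87, with the far end for Cdkn1c reached without embryo 6-1. Without the 4 embryos with over 10 CPM of oviduct markers, 0 of the 8 genes were called and Plagl1 stood at -2.02 and Cdkn1c at -0.80, and limma with the father as a random effect put Cdkn1c at -2.60 (adjusted p = 0.716), with the median of all rows at -0.19.

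The study compared each embryo of a Parg(110)-/- father with all WT embryos, since each arose from 1 sperm. The same comparison with edgeR called 97 rows in 1 embryo or another (0.0585% of all tests), and none was 1 of the 10 genes in any of 90 tests. Of these, 18 were of H19 and Dlk1, which are at 0 in all Parg(110) embryos and were tested only through counts in WT embryos. At an unadjusted p under 0.05 lay 9 of the 72 tests of the other 8 genes (12.5%), beside 5.72% of all tests; the 9 rest on 5 genes that share the same 9 WT embryos. The smallest adjusted p was 0.426, for Snrpn in embryo 7-3. The lone embryo is assumed to vary as the WT embryos do. The 12.5% leaves out H19 and Dlk1, while the share of all tests keeps rows that reached 10 counts in fewer than 3 embryos. The shares therefore cover unlike sets of rows.

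Of those 9 tests, 5 were embryos with 0 or 1 count of a gene. Snrpn was at 0 in embryo 7-3, at least 41.7-fold below the WT mean with a floor of 3 counts in that library, and 23.3-fold without embryo 3-1. Cdkn1c was at 0 in embryos 6-3 and 8-3, at least 68.6-fold and 45.3-fold below the WT mean, and had 1 count in embryo 7-1. Without embryo 3-1 these Cdkn1c bounds fell to 48.0-fold and 31.7-fold. Embryo 1-1, at 58.18 CPM, stayed in that WT mean, and the WT median of Cdkn1c was 10.2 CPM. Plagl1 was at 0 in embryo 7-2, at least 63.0-fold lower, or 23.9-fold without embryo 2-1. The WT mean behind the 23.9-fold still held embryo 2-3 at 46.97 CPM, and the WT median of Plagl1 was 2.11 CPM. WT embryos at 0 occurred too, for Igf2 and Plagl1 in embryo 3-3 and for Mest and Cdkn1c in embryo 2-3.

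The others were Peg3 in embryo 6-1 (16 counts, log2 difference -4.67, edgeR adjusted p = 0.647), Snrpn in embryo 6-1 (1768 counts, 2.36, adjusted p = 0.647), and Igf2r in embryo 7-1 (75.86 CPM, -1.84, adjusted p = 0.492) and embryo 8-3 (70.08 CPM, -1.90, adjusted p = 0.69). DESeq2, which called 4.15% of all tests in single embryos, called 7 of the 90: Peg3 and Snrpn in embryo 6-1, Cdkn1c in embryos 6-3, 7-1 and 8-3, Plagl1 in embryo 7-2 and Snrpn in embryo 7-3. No gene was called by DESeq2 in all 3 embryos of one father.

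A wider list of 44 other imprinted genes was measured alongside, and none was called. Counts of 7 of them were found in all 18 embryos and 5 (Ndn, Mkrn3, Peg12, Nap1l5 and Ascl2) had none in any. Of the 23 that passed the filter, among them Snurf with the counts of Snrpn, 0 were called by edgeR and 0 had an unadjusted p under 0.05; 14 lay above 0 (60.9%, beside 49.0% of all rows tested), with a median log2 difference of 0.25. Together with the 5 imprint-protecting genes described further on, the median was 0.13, and it turned to -0.16 without father 6 and to -0.03 without the 4 embryos with oviduct markers. The paternally expressed Usp29, beside Peg3, measured 118 ± 19.8 CPM in WT and 140.0 ± 50.3 CPM in Parg(110) embryos (SD, n = 9 each), a log2 difference of 0.25 (SE 0.24). Zrsr1 stood at -0.31 (SE 0.54), Kcnq1ot1, the long RNA that silences the Cdkn1c domain, at 0.62 (SE 0.66), and Gab1, an adaptor protein, at 0.30 (SE 0.77).

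Among maternally expressed genes Ube3a, a ubiquitin ligase, had a log2 difference of 0.70 (SE 0.38, edgeR adjusted p = 0.891). Ppp1r9a stood at -0.54 (SE 0.56), Kcnq1, a potassium channel, at 1.20 (SE 0.99), Asb4 at 0.35 (SE 0.78) and Meg3, a non-coding RNA of the Dlk1 domain, at 0.21 (SE 1.06). Gnas, whose transcripts come from either allele, stood at -0.49 (SE 0.46). None of these passed.

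**Figure D4:**
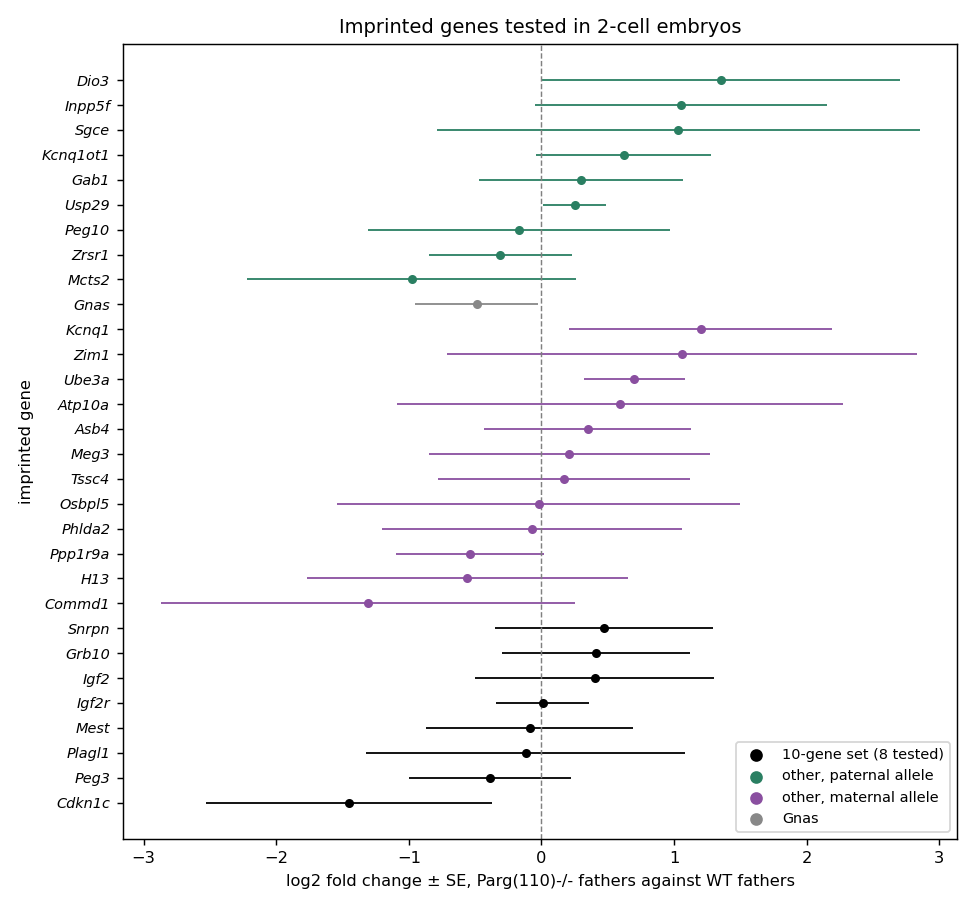
edgeR log2 fold changes ± SE (horizontal axis, embryos of Parg(110)-/- against WT fathers) of imprinted genes that passed the filter, with the 8 of the 10-gene set in black, other paternally expressed genes in green, other maternally expressed genes in purple and Gnas in grey; Snurf, with the counts of Snrpn, is left out. Values lie on both sides of 0 from Cdkn1c at -1.45 to Dio3 at 1.35, and none passed an adjusted p of 0.1.

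Factors that keep imprints through early cleavage had counts in all 18 embryos, with medians from 35.3 CPM for Trim28 to 8378 CPM for Dnmt1. Dnmt1, the maintenance DNA methyltransferase, had the highest median of the 5 and measured 9725 ± 2595 CPM in WT and 7388 ± 3022 CPM in Parg(110) embryos (SD, n = 9 each), a log2 difference of -0.39 (SE 0.21, edgeR adjusted p = 0.89). Zfp57 stood at 0.01 (SE 0.23), its partner Trim28 at 0.01 (SE 0.41), Dppa3, which guards methylation in the zygote, at -0.01 (SE 0.21) and Uhrf1, which brings DNMT1 to replicated DNA, at 0.10 (SE 0.36). Of these 5 genes 0 were called by edgeR and 0 had an unadjusted p under 0.05.

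Several rows share counts with other transcripts of the same gene. The Cdkn1c row was identical to that of another Cdkn1c transcript and the Dlk1 row to those of its other transcripts. The row of another Snrpn transcript held 56.7% to 100% of the counts of NM_013670, and that of another Grb10 transcript 47.1% to 100% of those of NM_010345. The row of another Igf2 transcript held 0% to 100% of those of NM_010514, with a median of 100% over 17 embryos. The counts of rows of 1 gene therefore cannot be added.

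The rows most like each gene over the 18 embryos, by Spearman correlation of CPM among the 15333 rows, were taken for genes with counts in at least 15 embryos and are given for 7 of them. They were Otx1 and Apba1 for Igf2, Rpl6 and Gm12669 for Igf2r, Slk and Slain2 for Peg3, Fbxl13 and Klf10 for Grb10, Pibf1 and NM_029454 for Cdkn1c, Cyb561a3 and Tmed2 for Plagl1, and Klhl7 and Smarcc1 for Snrpn. Their rho lay between 0.73 and 0.88, the highest among all 15333 rows in shared libraries of unequal depth, and Otx1 and Klf10 had median levels under 0.1 CPM.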

How the data were processed

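RNA of 18 single 2-cell embryos was amplified and sequenced. The values used are counts as deposited: the authors aligned with RUM against mm9, dropped reads with several positions, and counted whole reads for every RefSeq transcript without scaling; the submitters' processing notes name DESeq 1.10.0. The strand of counting is not given in the sources used here. Amplification can lose rare transcripts and widen the spread between embryos. Gene names came from a RefSeq table for 97.4% of rows; H19 was taken by its RefSeq identifier.

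CPM was computed from file totals. Rows reaching 10 counts in 3 or more embryos (in 1 or more for single-embryo tests) were tested with edgeR 4.0.16 (TMM, quasi-likelihood, R 4.3.3, adjusted p under 0.1). SEs were derived from each row's log2 difference and F value, and 95% intervals use 16 degrees of freedom. DESeq2 1.42.0, limma 3.58.1, other filters, sums per father, a replicate block and left-out fathers or embryos were alternatives. Embryos were compared by exact permutation (numpy 2.4.6) and by Fisher's exact test (scipy 1.17.1). Scripts were tested on simulated data. Embryos of 1 father are not independent of each other, but p-values over embryos treat them as independent. Floors of 3 counts cover counting error only. All pairs of libraries differed by more than sampling noise. The members and gene lists were chosen with earlier results of these data known. Named genes were all 10 members and, of the other imprinted and the imprint-protecting lists, those with an unadjusted p under 0.05 and, per list, the 5 with the highest median CPM. The rows most like Mest are not reported here. Positions and transcript lengths are from GENCODE vM1 (mm9).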

Additional observations from a re-analysis of the deposited data

Results flagged for a closer look

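Within each group of 9 embryos, the highest or lowest value was set against the others by Dixon's test, which flags about 1 in 20 groups by chance. Of 18 groups of values (10 genes, less the 2 groups at 0), 7 had an embryo that stood apart, each at the top, and no explanation was tested. Among WT embryos these were H19 at 8.84 CPM in embryo 2-1 (next 3.56 CPM), Igf2 at 38.57 CPM in embryo 2-2 (next 15.80 CPM), Plagl1 at 120.40 CPM in embryo 2-1 (next 46.97 CPM) and Snrpn at 128.82 CPM in embryo 3-1 (next 35.31 CPM). Among Parg(110) embryos they were Cdkn1c at 33.37 CPM in embryo 6-1 (next 12.38 CPM), Plagl1 at 119.41 CPM in embryo 6-3 (next 12.72 CPM) and Snrpn at 141.47 CPM in embryo 6-1 (next 69.48 CPM). Embryos 2-1 and 6-1 held 2 of the 7 each and were the deepest libraries of their groups. CPM values are right-skewed, and the test assumes a symmetric spread.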

How the results depend on the processing

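None of the 8 members tested, and none of the other imprinted or imprint-protecting genes, was called in any alternative of the comparison of groups; the lowest adjusted p of a member was 0.533. All rows called numbered 38 by DESeq2 and 0 to 5 with 1 father or embryo left out. In single embryos, rows called numbered 50 with the stricter filter, 39 at 0.05, 4502 by DESeq2 and 41 to 81 without 1 WT father, and member calls 7 by DESeq2. The causes were not tested. The share of DESeq2 calls given earlier for single embryos counts tests, and 1 row can be called in several embryos. Signs turned for Mest (log2 0.17 with sums per father, 0.13 with the embryo number as a replicate block, 0.31 without the 4 embryos with oviduct markers, chosen after seeing the data) and Igf2r (-0.07 with limma, which shifted the median of all rows to -0.19, -0.0005 with the block, -0.03 without those embryos). The numbers share no litter or day on the labels, and the block changed no call. Leaving out fathers or embryos gave log2 ranges of -0.12 to 1.48 (Igf2), -0.19 to 0.30 (Igf2r), -0.68 to 0.24 (Mest), -0.82 to 0.10 (Peg3), -1.80 to 3.00 (Plagl1) and -0.54 to 1.29 (Snrpn). Exact permutation p-values whose direction turned were 0.686 and 0.684 (Igf2r) and 0.889 and 0.696 (Snrpn) at log2(CPM + 1) and log2(CPM + 0.1), 0.904 (Mest) at the latter, 0.955 (Plagl1) at the former, and 0.937 (Igf2r) and 0.685 (Mest) without the oviduct-marker embryos. With fathers or embryos left out they ranged from 0.207 to 0.973 (Igf2), 0.463 to 0.941 (Igf2r), 0.335 to 0.994 (Mest), 0.147 to 0.945 (Peg3), 0.408 to 0.995 (Plagl1) and 0.197 to 0.886 (Snrpn). In the shallowest library 1 count is 0.3505 CPM.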
